A study of Mus musculus with 70 samples.

Results

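The genes described here encode the subunits of the mitochondrial respiratory chain and of the ATP synthase, from the nuclear genome and from mitochondrial DNA, in sorted cells of mouse B16F10 melanomas after histotripsy, a focused ultrasound treatment that breaks up tissue mechanically. Members were chosen by gene symbol (Nduf, Uqcr, Cox4 to Cox8 and Atp5 names for the nuclear genes, mt-Nd, mt-Co, mt-Cytb and mt-Atp names for the mitochondrial ones, pseudogene symbols left out) and by a total of at least 100 counts over all libraries of a count table. Of 55487 gene lines in each table, 85 had a matching nuclear symbol and 13 a matching mitochondrial one. The total count kept 74 nuclear members in the CD45- table of day 3, 73 in that of day 7, 72 in the CD45+ table of day 3 and 73 in that of day 7, with 75 in at least 1 table and 71 in all 4. Of the 75, 37 are counted under complex I, 8 under complex III, 13 under complex IV and 17 under the ATP synthase (complex V). The 37 include Ndufb4c, annotated as a processed pseudogene, which was kept because its symbol carries no pseudogene mark. Complexes were assigned by symbol, so that Ndufa4, which was first named as a complex I subunit and is now placed in complex IV, is counted under complex I throughout. The same 7 mitochondrial genes passed in every table: mt-Nd1, mt-Nd2, mt-Nd4, mt-Nd5 and mt-Nd6 of complex I, mt-Cytb of complex III and mt-Co1 of complex IV. Just inside the limit of 100 counts stood Uqcrc2, with 114 counts in the CD45- table of day 3, and Cox5a, with 126 counts in the CD45+ table of day 3. Just outside stood Uqcrc2 on day 7 in the CD45- cells, with 99 counts, and Ndufb4c and Ndufs5 in the CD45+ table of day 3, with 84 and 75 counts.

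C57BL/6 mice of both sexes, 6 to 8 weeks old at the start, carried B16F10 melanomas, a transplantable mouse melanoma line, on both flanks. One tumor received a sham procedure (control) or a partial histotripsy ablation (histotripsy-treated), and the untouched tumor on the other flank of an ablated mouse was the histotripsy-abscopal tumor. Assignment to the groups was not randomized. On day 3 and day 7 after the procedure, CD45- cells (tumor and supporting cells) and CD45+ cells (immune cells) were sorted from each tumor and profiled by 3' tag RNA sequencing, in which 1 tag is made near the poly(A) end of a transcript. The 70 libraries comprised, for CD45- cells, 4 control, 7 treated and 7 abscopal libraries on day 3 and 11, 3 and 4 on day 7, and for CD45+ cells 4, 6 and 7 on day 3 and 10, 3 and 4 on day 7. The labels tie no library to an animal, so every p-value below measures only the spread between these libraries, part of which may be technical.

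The respiratory chain sits in the inner mitochondrial membrane. Complex I takes electrons from NADH, complex II from succinate, complex III passes them to cytochrome c and complex IV to oxygen, and the proton gradient that complexes I, III and IV build is spent by the ATP synthase to make ATP. Most subunits are nuclear genes translated in the cytosol and imported, while the hydrophobic core subunits are encoded in mitochondrial DNA, transcribed there as long strands and cut into single RNAs, so that both genomes supply parts of the same complexes. B16F10 cells are rapidly dividing melanoma cells, and immune cells differ widely in how much they rely on respiration: neutrophils are known to hold few mitochondria and to depend mainly on glycolysis.

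The sort was visible in the data. Ptprc, which encodes CD45, had 0 to 3 counts per CD45- library and 929 to 2916 per CD45+ library, and the melanoma markers summed to between 24598 and 38054 CPM (counts scaled to the library size and the TMM factor, a normalization for RNA composition) in the CD45- libraries. Library totals ran from 887798 to 3820700 counts. In the CD45+ table of day 3, treated replicate 3 carried the highest summed level of neutrophil markers (35349 CPM) and of erythroid markers (9628 CPM), and abscopal replicates 1 and 4 carried 1195 and 2264 CPM of melanoma markers, against 93.1 to 389 CPM in the other libraries. For the calls of that table, the counts and the values of the called genes are also given without these 3 libraries.

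Not every mitochondrial gene could be counted. Over the 70 libraries, mt-Nd1 received 614996 counts, mt-Cytb 586721, mt-Nd4 531022, mt-Nd2 428291, mt-Co1 346845, mt-Nd5 256451 and mt-Nd6 92707. By contrast, mt-Co3 and mt-Atp6 received 6 counts each, mt-Nd3 7, and mt-Co2, mt-Nd4l and mt-Atp8 none, although these genes encode core subunits of complexes IV, V and I. Stretches of mitochondrial DNA have been copied into nuclear chromosomes, and the annotation names many of them as pseudogenes. The last 300 bases of each gene were therefore compared with all other annotated genes in windows of 50 bases. Of the windows of mt-Co3, 99.6% recurred in another gene, and the pseudogene Gm28437 on chromosome 1 received 71486 counts. The closest copies of mt-Atp6, mt-Nd3, mt-Co2 and mt-Nd4l received far fewer, with 2752, 2909, 3530 and 1969 counts, so a copy with many counts was found for mt-Co3 and not for these genes. For mt-Co2 the share was 100%, for mt-Atp6, mt-Nd3 and mt-Nd4l 98.8%, and for mt-Nd1, mt-Nd4, mt-Cytb and mt-Nd6 0%. The pattern had 2 exceptions, since mt-Co1 was counted although 100% of its windows recurred, and mt-Atp8 was listed at 0 with 0% recurring. The end of mt-Co3 is shown because a 3' tag falls near the end of a transcript and the nuclear copy is nearly the same there. It is the end of the only exon of the gene, from GRCm38, with the capital marking the base that the copy lacks.

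mt-Co3, chrM:9331-9390, + strand: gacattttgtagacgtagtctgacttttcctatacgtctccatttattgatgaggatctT

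Over the whole gene (chrM:8607-9390), 783 of 784 bases were identical to Gm28437 (chr1:24613189-24613971, - strand). The levels of mt-Nd2 (31.9% of windows shared), mt-Co1 and mt-Nd5 (1.99%) are accordingly less certain than those of mt-Nd1, mt-Nd4 and mt-Cytb. mt-Nd5 and mt-Nd6 lie on opposite strands and overlap by 14 bases. The strand setting of the counting is not given in the sources used here.

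**Figure D1:**
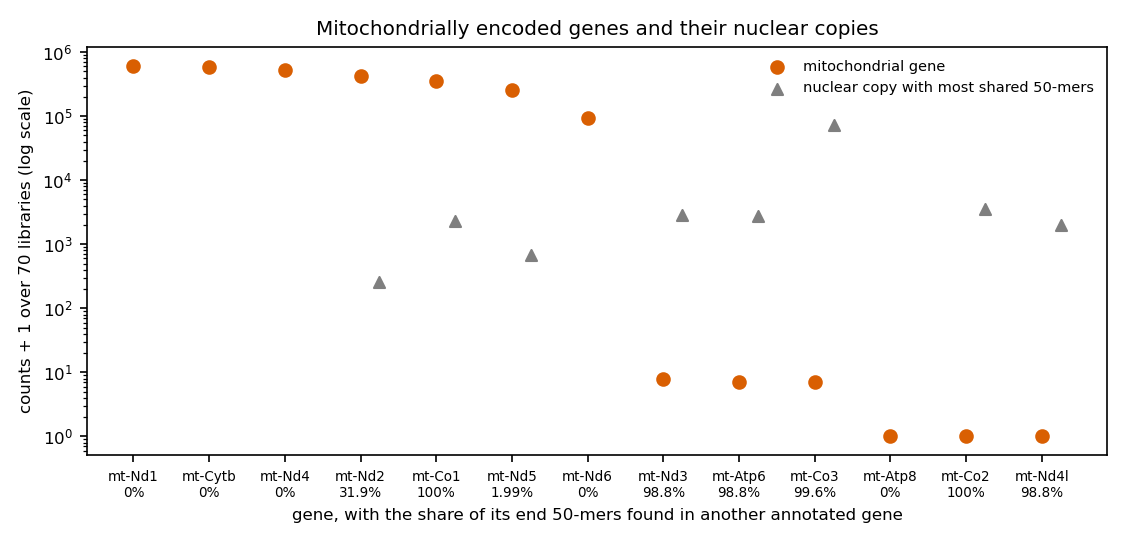
Counts plus 1 summed over the 70 libraries (y axis, log scale) of the 13 mitochondrial protein-coding genes (circles) and of the nuclear copy that shares most 50-base windows with each (triangles), by gene with the percent of windows at its 3' end found in another annotated gene (x axis). The 7 genes with 92707 to 614996 counts are members, and the 6 genes with 0 to 7 counts are not, while Gm28437, the copy of mt-Co3, holds 71486 counts.

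Among the 75 nuclear members, 72 had an annotated coding transcript, and 44 of these shared no window of their last 300 bases with another gene. In 5 members at least 50% of the windows were shared: Atp5l (70.1%), Cox7c (65.2%), Atp5h (59.2%), Atp5g2 (55.5%) and Ndufs3 (53.0%). Their values are uncertain to the extent that the authors' counting divided or dropped such reads. Ndufa4, Ndufc2, Ndufv2 and Cox6a2, on which the histotripsy result below turns, shared none.

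The nuclear members are spread over many chromosomes and were compared for promoter sequence. Nuclear respiratory factor 1 (NRF1), the GA-binding protein GABP (an ETS factor) and YY1 are known regulators of nuclear respiratory genes. RefSeq promoter windows (GRCm38.p6, 250 bases before and 50 after the start) were found for 62 of the 75 members and searched on both strands. GCGCANGC, the core of the NRF1 motif, was present in 20 of the 62 (32.3%) and in 2706 of all 27025 windows (10.01%). CCGGAAGT, an ETS motif, was present in 5 members (8.06%; 3.93% of all windows), and AAGATGGC, a YY1 motif, in 10 (16.1%; 2.86%). At least 1 of the 3 was found in 31 members and in 15.3% of all windows. The windows of 3 members that fell after histotripsy in CD45+ cells (below) are shown for comparison, with the NRF1 match in capitals.

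Ndufa4, chr6:11907401-11907700, - strand: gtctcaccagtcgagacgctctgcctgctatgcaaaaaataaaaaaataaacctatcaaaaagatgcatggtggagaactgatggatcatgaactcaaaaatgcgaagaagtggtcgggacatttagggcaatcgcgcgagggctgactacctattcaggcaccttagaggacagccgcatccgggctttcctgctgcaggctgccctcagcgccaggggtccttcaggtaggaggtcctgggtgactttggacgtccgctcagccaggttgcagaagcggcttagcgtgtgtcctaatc
Ndufc2, chr7:97399753-97400052, + strand: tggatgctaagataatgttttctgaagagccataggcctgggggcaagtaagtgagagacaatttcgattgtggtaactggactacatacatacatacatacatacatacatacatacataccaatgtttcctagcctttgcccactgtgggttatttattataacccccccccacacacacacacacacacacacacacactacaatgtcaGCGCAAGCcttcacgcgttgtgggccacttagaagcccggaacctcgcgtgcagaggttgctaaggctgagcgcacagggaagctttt
Ndufv2, chr17:66101510-66101809, - strand: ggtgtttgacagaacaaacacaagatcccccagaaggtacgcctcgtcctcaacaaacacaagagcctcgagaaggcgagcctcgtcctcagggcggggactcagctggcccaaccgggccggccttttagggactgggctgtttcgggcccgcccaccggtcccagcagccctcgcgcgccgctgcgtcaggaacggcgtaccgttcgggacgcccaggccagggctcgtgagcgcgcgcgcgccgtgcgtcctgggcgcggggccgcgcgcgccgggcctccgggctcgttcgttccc

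Only the window of Ndufc2 held 1 of the 3 motifs, and no window was given for Cox6a2. These matches describe letters in the window and are not binding sites.

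The members together took a larger share of the RNA in CD45- than in CD45+ cells. Nuclear members made up 1.71 to 2.96% of the counts of a CD45- library (median 2.51%) and 0.574 to 1.40% of a CD45+ library (median 1.03%), so the ranges did not overlap. The 7 mitochondrial members made up 1.68 to 3.34% in CD45- libraries (median 2.297%) and 0.913 to 2.04% in CD45+ libraries (median 1.31%), and these ranges did overlap. In the CD45+ cells of day 3, nuclear members made up 0.984, 1.33, 1.28 and 1.36% in the 4 control libraries. In the 6 treated libraries they made up 0.925, 0.887, 0.574, 1.05, 1.03 and 0.733%. The lowest share of all CD45+ libraries was that of treated replicate 3, and the lowest control share lay within the range of the treated ones. Abscopal libraries ran from 0.797 to 1.26%, with a median of 0.984%. Mitochondrial members made up 1.54% ± 0.165 (SD, n = 4) in control, 1.21% ± 0.248 (SD, n = 6) in treated and 1.40% ± 0.201 (SD, n = 7) in abscopal libraries. A sum of this kind cannot tell fewer cells of a type from less RNA per cell, and the same holds for every level below.

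**Figure D2:**
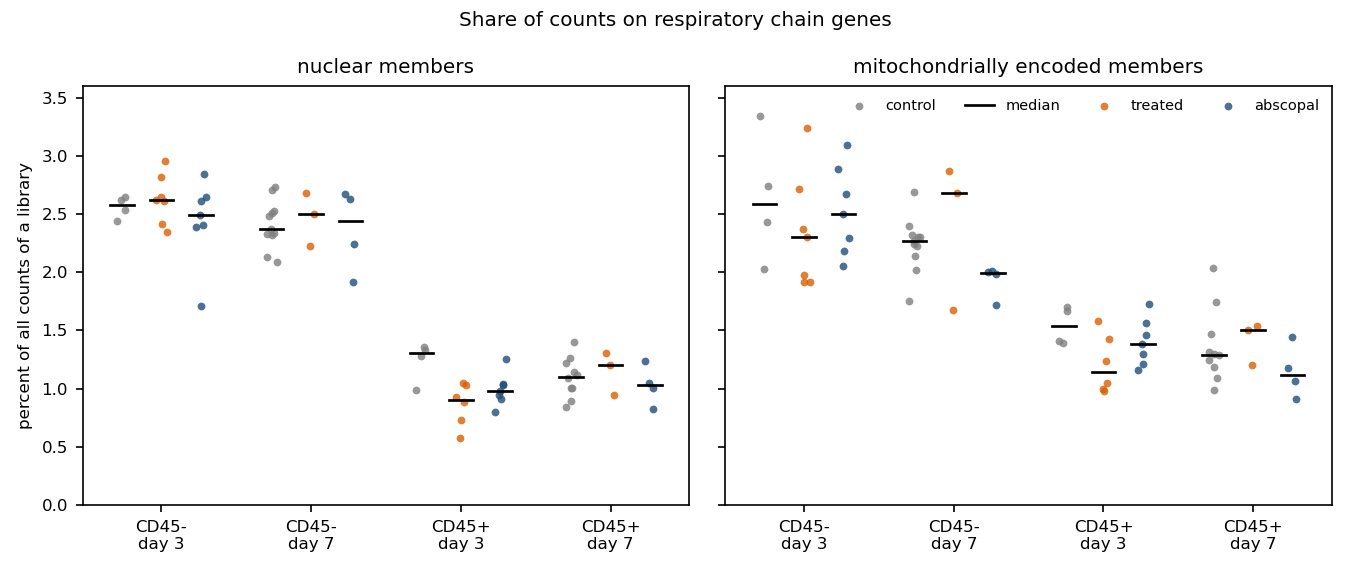
Percent of each library's counts (y axis) taken by the nuclear members (left) and by the 7 mitochondrial members (right), for control, treated and abscopal tumors in each table (x axis), with 1 point per library and a bar at the group median. Every CD45- library lies at or above 1.71% for nuclear members and every CD45+ library at or below 1.40%.

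The respiratory chain genes that changed after histotripsy did so in the CD45+ cells of treated tumors on day 3, and they fell. Ndufa4, Ndufc2, Ndufv2 and Cox6a2 were lower in treated than in control tumors, and no member was higher. The quasi-likelihood test of edgeR, with p-values adjusted over all genes by the Benjamini-Hochberg method and called at 0.05, found these 4 of 72 nuclear members, where it called 163 of 10264 genes lower (1.59%) and 801 in either direction (7.8%). At an unadjusted p under 0.05, 19 of the 72 were lower and 0 higher, beside 933 lower and 1524 higher of the 10264 genes. The median log2 fold change of the nuclear members was -0.27, from -1.89 to 0.17, with 6 members above 0, while the median over all genes was -0.01. The count is small and moved with the processing. It was 7 with DESeq2, 1 without control replicate 3 or 4, and 2 without treated replicate 1, 5 or 6. With library totals in place of TMM scaling it was 13, with a median of -0.48 for the nuclear members and -0.22 over all genes. Without the 3 libraries described above, of which treated replicate 3 alone belongs to this comparison, 7 nuclear members were called, beside 631 of 10092 genes (6.25%), and their median was -0.23. Without treated replicate 3 alone, 4 were called.

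Ndufa4, on chromosome 6 (GRCm38 chr6:11900292-11907497, - strand, 3 exons), is the gene counted under complex I by its symbol and now placed in complex IV. Its level in CD45+ cells on day 3 was 46.3, 54.2, 45.8 and 63.1 CPM in the control libraries and 22.9, 25.5, 38.2, 11.6, 32.7 and 24.3 CPM in the treated ones. All 6 treated libraries lay below all 4 control libraries, and the 7 abscopal libraries, from 29.3 to 49.3 CPM with a median of 35.0, overlapped both. The mean fell from 52.4 ± 8.15 CPM (SD, n = 4) to 25.9 ± 9.12 (SD, n = 6), a log2 fold change of -1.03 with a standard error of 0.22 and an adjusted p of 0.00776. These levels rested on 50 to 167 counts per control library and 17 to 53 per treated library. The decrease was called in all 26 alternative settings, left-out libraries included, with log2 fold changes between -1.25 and -0.87, and -1.17 without the 3 libraries that stood apart (adjusted p = 0.005).

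Ndufc2, an accessory subunit of the membrane arm of complex I (chr7:97400003-97407802, + strand, 3 exons), was at 92.6, 106, 122 and 111 CPM in the control libraries and at 66.3, 87.7, 72.5, 69.98, 85.8 and 63.5 CPM in the treated ones. Again no treated library reached the lowest control library, whereas the abscopal libraries, from 88.6 to 109 CPM with a median of 100.4, lay among the controls. The mean fell from 108 ± 12.2 CPM to 74.3 ± 10.1 (log2 fold change -0.54, SE 0.13, adjusted p = 0.0161), and the call held in 23 of the 26 settings (without the 3 libraries -0.53, adjusted p = 0.0257). Ndufc2 was also called between treated and abscopal tumors (-0.42, SE 0.12, adjusted p = 0.0339), where the treated libraries again lay below every abscopal one. That call was lost without the 3 libraries, with no filter on low counts and with only the compared groups in the fit. It was also lost with the replicate number as a block. The same held in 10 of 17 refits without 1 library (abscopal replicates 2 to 7 and treated replicates 1, 3, 4 and 6).

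Ndufv2, a core subunit of the NADH-oxidizing tip of complex I that holds an iron-sulfur cluster (chr17:66078638-66101559, - strand, 10 exons), was at 90.8, 61.5, 67.8 and 70.3 CPM in the control libraries and ran from 43.2 to 60.8 CPM in the treated ones, with a median of 50.5. The highest treated library lay just under the lowest control library. Abscopal libraries ran from 54.4 to 75.8 CPM, with a median of 65.2. The mean fell from 72.6 ± 12.7 CPM to 50.9 ± 5.82 (log2 fold change -0.50, SE 0.15, adjusted p = 0.0357). The call held in 16 of the 26 settings, and was lost without control replicate 1, 3 or 4 or treated replicate 1, 5 or 6 (highest adjusted p 0.114) and without the 3 libraries (-0.51, adjusted p = 0.0527). Its partner at the same tip, Ndufv1, and the largest subunit of complex I, Ndufs1, had log2 fold changes of -0.19 and -0.18 that were not called.

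Cox6a2, the isoform of a complex IV subunit known from heart and skeletal muscle (chr7:128205435-128206387, - strand, 3 exons), was expressed at a low level, with 17.6, 13.4, 14.9 and 17.8 CPM in the control libraries and 3.399 to 11.3 CPM in the treated ones (median 5.22). The groups did not overlap. The mean fell from 15.9 ± 2.13 CPM to 6.13 ± 3.06 (log2 fold change -1.36, SE 0.41, adjusted p = 0.0458), on 19 to 47 counts per control library and 4 to 16 per treated library. Abscopal libraries spanned both groups, from 3.16 to 17.8 CPM with a median of 5.17. Cox6a2 was called in 13 of the 26 settings, and in 5 of 17 refits without 1 library. Without the 3 libraries it was at -1.44 (adjusted p = 0.0163). Its widespread partner isoform Cox6a1 was at 251 ± 41.4 CPM in treated and 245 ± 7.73 in control libraries, a log2 fold change of 0.03. The 6 skeletal muscle markers together reached 1.85 to 7.38 CPM in CD45+ libraries of day 3. Cox6a2 overlaps Itgad, a gene on the opposite strand, over 70 of 680 exon bases, and Itgad itself had 0 to 3 counts per library.

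**Figure D3:**
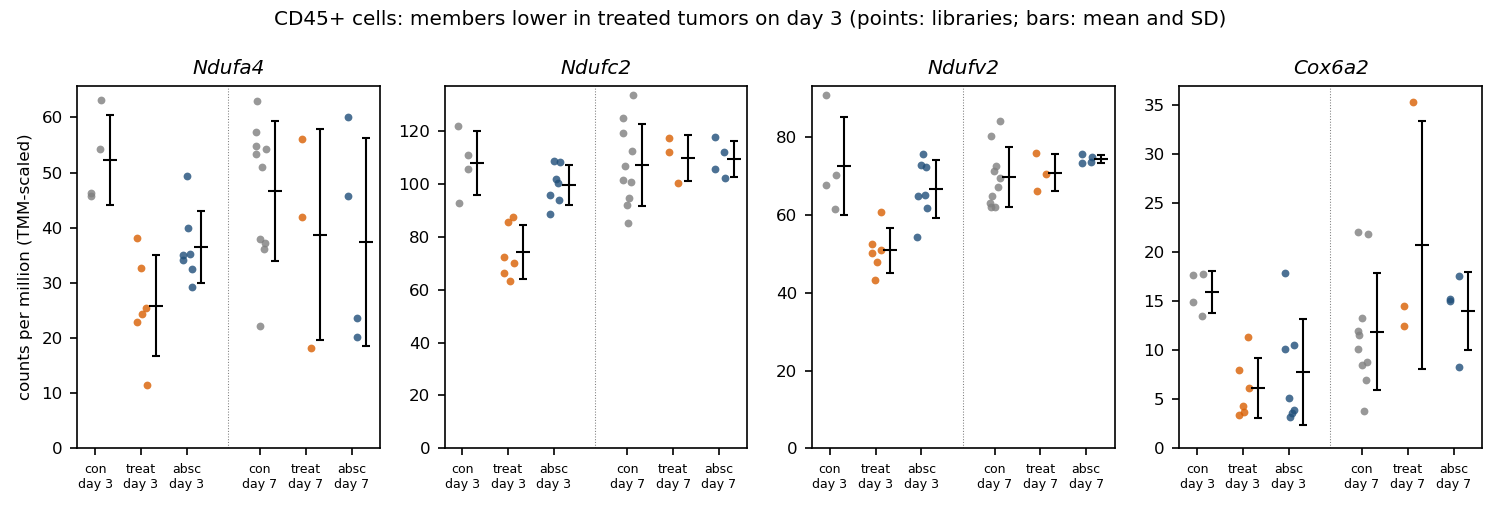
Level in TMM-scaled CPM (y axis) of Ndufa4, Ndufc2, Ndufv2 and Cox6a2 in CD45+ cells of control (con), treated (treat) and abscopal (absc) tumors by day (x axis), with 1 point per library and bars at the mean ± SD. On day 3 the 6 treated libraries lie below the 4 control libraries for each gene, and on day 7 the groups overlap.

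Most other members of complex I had values below 0 without passing the test. Over the 35 nuclear members with complex I symbols tested, 3 were called and 10 were lower at an unadjusted p under 0.05, Ndufa4 among both, with a median log2 fold change of -0.25. Ndufa1, a small membrane subunit, was at 143 ± 39.5 CPM in control and 72.4 ± 41.0 in treated libraries, with overlapping groups. Ndufs8, an iron-sulfur subunit, had a log2 fold change of 0.05.

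In complex III, 0 of 7 nuclear members were called by edgeR, and the median was -0.33. Uqcrb, which binds ubiquinone, was at 85.2, 139, 112 and 129 CPM in control and at 53.7 to 88.4 CPM in treated libraries, with 1 control library inside the treated range (log2 fold change -0.68, SE 0.22, adjusted p = 0.0607). The core protein Uqcrc1 had a log2 fold change of -0.01 and the Rieske protein Uqcrfs1 one of -0.39 (adjusted p = 0.248).

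Of the 13 members with complex IV symbols, which leave out Ndufa4, Cox6a2 was called, and the median was -0.33. Cox7c was at 118, 283, 238 and 294 CPM in control libraries and at 72.7 to 165 CPM in treated ones (log2 fold change -0.96, adjusted p = 0.0604). Control replicate 1 lay within the treated range for Cox7c. Cox5a, which had 0 to 32 counts per control library and 1 to 4 per treated library, had a log2 fold change of -1.89 (SE 0.67, adjusted p = 0.0843). In the other isoform sets, Cox4i1 was at -0.18, Cox6b1 at -0.26, Cox8a at -0.33, Cox7a2 at -0.39, Cox7a1 at -0.04 and Cox7a2l at -0.02. None of these was called. Their partners Cox4i2, Cox6b2, Cox8b and Ndufa4l2 stayed under 100 counts in every table and were not members.

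Of the 17 members of the ATP synthase, 0 were called by edgeR, with a median of -0.32. Atp5h, a subunit of the peripheral stalk, came closest: 85.2, 113, 113 and 111 CPM in control libraries against 53.0 to 81.2 CPM in treated ones, without overlap (log2 fold change -0.60, SE 0.19, adjusted p = 0.0512). Another stalk subunit, Atp5pb, was at 231 ± 29.8 CPM in control and 168 ± 18.9 in treated libraries (-0.47, adjusted p = 0.083), and the catalytic subunit Atp5b at 250 ± 45.8 and 189 ± 10.04 (-0.40, adjusted p = 0.0977). Atp5a1, the other large subunit of the catalytic head, had a log2 fold change of -0.23. The 3 genes that encode the same c subunit of the rotor, Atp5g1, Atp5g2 and Atp5g3, were at -0.45, -0.97 and -0.74. Atp5g3, the highest nuclear member of CD45+ cells on day 3, ranged from 393 to 1194 CPM among the controls alone.

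Of the 7 mitochondrial members, 0 were called by edgeR, and 0 had an unadjusted p under 0.05. Their median log2 fold change was -0.18, with mt-Nd2 at 0.17 and mt-Nd4 at 0.02. The reading of mt-Cytb, the only complex III subunit encoded in mitochondria, was 2373, 2946, 2368 and 3072 CPM in control libraries and 1920 to 2559 in treated ones, with a median of 2227. The groups overlapped (log2 fold change -0.26, SE 0.15, adjusted p = 0.312). The catalytic complex IV subunit mt-Co1 was at -0.36, mt-Nd5 at -0.29, mt-Nd1 at -0.18 and mt-Nd6 at -0.13.

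Markers of other cell types moved in the same comparison. Of 6 neutrophil markers, 5 were called higher in treated tumors (median log2 fold change 2.48), with summed levels of 341 to 2498 CPM in control and 1257 to 35349 CPM in treated libraries. Of 6 T cell markers, 2 were called lower (median -0.69), with summed levels of 1171 to 1505 CPM in control and 358 to 1018 CPM in treated libraries. None of the 7 monocyte and macrophage markers was called, at 2222 to 2589 CPM in control and 1366 to 3519 in treated libraries, nor any of the 4 NK cell markers. Every marker of these lists was detected. TMM factors also differed, from 1.05 to 1.11 in control and from 0.765 to 1.07 in treated libraries. The part of the cell mixture in the lower respiratory chain levels was not tested.

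Other genes of the mitochondrion were followed through fixed lists, and most of these had medians below 0 with few calls. Of all genes in this comparison, 1.59% were called lower and 6.22% higher. Of 70 proteins of the mitochondrial ribosome tested, 2 were called lower, Mrps17 (log2 fold change -0.67, SE 0.17, adjusted p = 0.0175) and Mrpl27 (-1.21, SE 0.37, adjusted p = 0.0466), and the median was -0.23. Of 7 genes for mitochondrial DNA, transcription and RNA, Polg2, the accessory subunit of the mitochondrial DNA polymerase, was called higher (1.02, SE 0.30, adjusted p = 0.0427), and the median was -0.15. The edgeR test called none in the other lists: 0 of 3 for complex II (median -0.23), 0 of 6 electron carriers and nearby subunits (-0.34), 0 of 13 complex I assembly factors (-0.21), 0 of 5 for complex III (-0.17), 0 of 14 for complex IV (-0.28), 0 of 3 for complex V and its inhibitor (-0.26), 0 of 11 tricarboxylic acid cycle enzymes (-0.24) and 0 of 7 nuclear regulators (0.03). At an unadjusted p under 0.05, 2 electron carriers, 3 tricarboxylic acid cycle enzymes and 3 complex IV assembly factors were lower, beside 933 of 10264 genes. The 2 mitochondrial ribosomal RNAs had log2 fold changes of 0.39 and 0.52 and were not called.

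**Figure D4:**
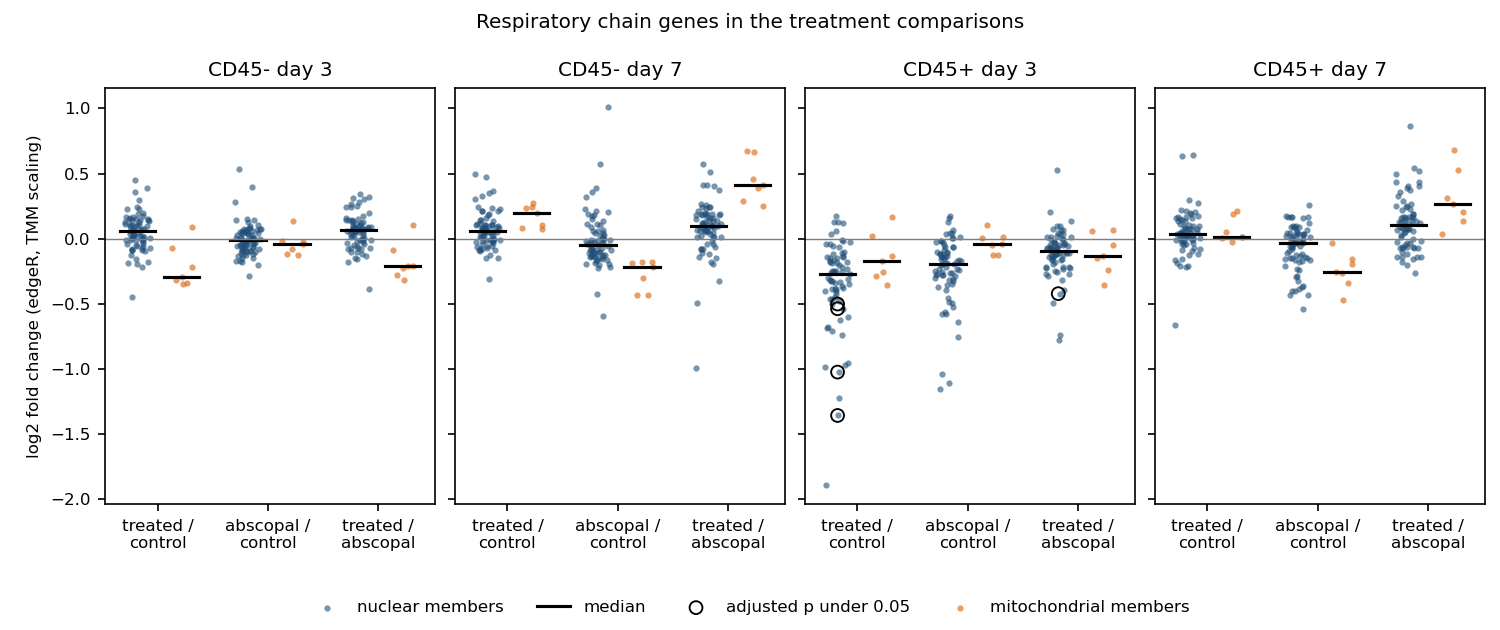
Log2 fold change (y axis) of each nuclear (blue) and mitochondrial (orange) member, 1 point per gene, in the 3 treatment comparisons of each table (x axis), with a bar at the median and circles around members with an adjusted p under 0.05. In CD45+ cells on day 3, the nuclear members have a median of -0.27 in treated against control tumors, and in the other tables their medians lie between -0.05 and 0.11.

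Abscopal tumors did not share these calls. In CD45+ cells on day 3, edgeR, DESeq2 and limma-voom each called 0 members between abscopal and control tumors, where edgeR called 0% of 10264 genes, and 6 of 72 nuclear members were lower at an unadjusted p under 0.05, beside 289 of all genes. Cox6a2 had a log2 fold change of -1.11 (SE 0.38, adjusted p = 0.554) and Ndufa4 one of -0.53 (SE 0.21, adjusted p = 0.575). Ndufc2 and Ndufv2 were at -0.12 and -0.11. The median was -0.19 over the 72 nuclear members, 10 of them above 0, and -0.04 over the 7 mitochondrial ones. Between treated and abscopal tumors, where 5.44% of all genes were called and 0.565% were called lower, Ndufc2 was the 1 member called, with the losses given above. Ndufv2 was at -0.40 (adjusted p = 0.0752), Ndufa4 at -0.50 (adjusted p = 0.168) and the median of the nuclear members at -0.10. These comparisons share libraries and are not independent. By the design, treated and abscopal tumors can come from the same mice, and the main fit did not pair them.

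By day 7 the difference in CD45+ cells was not detectable. Against control tumors, edgeR, DESeq2 and limma-voom called 0 of 71 nuclear and 0 of 7 mitochondrial members in treated and in abscopal tumors, 0 had an unadjusted p under 0.05, and edgeR called 0% of all genes in each of the 3 comparisons of the table. Ndufa4 was at 42.0, 18.2 and 56.1 CPM in the 3 treated libraries and ran from 22.1 to 63.0 CPM, with a median of 52.2, in the 10 control libraries. One treated library lay below all control libraries and the others within their range. Ndufc2 was at 110 ± 8.66 CPM in treated and 107 ± 15.4 in control libraries, and Ndufv2 at 70.9 ± 4.88 and 69.7 ± 7.62. Cox6a2 was at 14.5, 35.2 and 12.5 CPM in treated libraries and ran from 3.85 to 22.0 CPM in control libraries (log2 fold change 0.64, SE 0.37, edgeR unadjusted p = 0.0962, not called). The treated replicate at 35.2 CPM lay above every control library. The median log2 fold changes of the nuclear members were 0.04 in treated, -0.04 in abscopal and 0.11 in treated against abscopal tumors. With 3 treated libraries, small differences could not have been detected.

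The change of the treatment effect between the days was tested directly. In CD45+ cells, the effect of treatment against control on Cox6a2 was higher on day 7 than on day 3 by 2.04 log2 units (SE 0.58, adjusted p = 0.0485), where 2.68% of all genes were called. The treated libraries lay below all controls on day 3 and within or above the control range on day 7. This call was lost in most refits without 1 library, which called 0 to 2 members. It was also lost with limma-voom and with the replicate number as a block. Ndufc2 differed by 0.60 (SE 0.18, edgeR adjusted p = 0.0602), Ndufv2 by 0.54 (adjusted p = 0.0811) and Ndufa4 by 0.82 (adjusted p = 0.285). Of 72 nuclear members, 65 had a positive difference, with a median of 0.35, or 0.53 with library totals in place of TMM. For the abscopal effect in CD45+ cells, edgeR called 0 members and 0% of all genes, 1 member had an unadjusted p under 0.05, and Cox6a2 differed by 1.39 (adjusted p = 0.726). In CD45- cells, edgeR called 0 members in either test (0% of genes for treated and 0.00866% for abscopal tumors), with 1 and 3 nuclear members at an unadjusted p under 0.05. DESeq2 called 2 members in the first test and 0 in the others, and limma-voom called 0 in all 4. In control tumors alone, day 7 and day 3 differed for 0 members in either fraction by the 3 tools, where 0% of genes in CD45- and 0.0242% in CD45+ cells were called by edgeR. At an unadjusted p under 0.05 stood mt-Nd4 in CD45- cells (-0.32) and Ndufb8 in CD45+ cells (-0.20).

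In CD45- cells the respiratory chain genes did not change detectably with histotripsy. On day 3, edgeR, DESeq2 and limma-voom called 0 of 73 nuclear and 0 of 7 mitochondrial members in treated against control (0.0916% of genes called), abscopal against control (0%) and treated against abscopal tumors (0.147%). The medians of the nuclear members were 0.06, -0.01 and 0.07, with 1, 0 and 2 members higher at an unadjusted p under 0.05, beside 651, 297 and 814 of 10921 genes. Of the genes that fell in CD45+ cells, Ndufa4, Ndufc2 and Ndufv2 were tested here and not called. Cox6a2 was not a member in CD45- cells. Ndufa4 was at 233 ± 56.4 CPM in treated (n = 7) and 210 ± 41.1 in control libraries (n = 4), Ndufc2 at 290 ± 34.4 and 253 ± 23.1, and Ndufv2 at 136 ± 18.1 and 140 ± 13.5. Atp5pb had the smallest p of the treated against control comparison, with a log2 fold change of 0.30 (SE 0.13, adjusted p = 0.421). Mitochondrial members had medians of -0.29, -0.04 and -0.21 in the 3 comparisons. Their spread was wide, since mt-Cytb alone was at 7690, 6241, 4227 and 5076 CPM in the control libraries and ran from 3637 to 7198 CPM in treated ones, so that the groups overlapped and a control library was the highest.

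On day 7 the CD45- cells again gave 0 called members by the 3 tools, in treated against control (0%), abscopal against control (0.291%) and treated against abscopal tumors (0%). At an unadjusted p under 0.05, 3 of 73 nuclear members were higher in treated than in control tumors, beside 421 of 10996 genes, a similar share, with Ndufs8 at 0.35 (adjusted p = 0.702). In abscopal tumors 3 were higher and 3 lower, beside 640 and 411 genes, with Cox6a1 at -0.21 (adjusted p = 0.315). All 7 mitochondrial members had log2 fold changes above 0 in treated against abscopal tumors, with a median of 0.41, and 5 of them had an unadjusted p under 0.05, beside 406 higher and 335 lower of 10996 genes. For mt-Nd5, a proton-pumping subunit of complex I, the treated libraries were at 3372, 2438 and 1294 CPM and the abscopal ones at 1685, 1485, 1511 and 1294 (log2 fold change 0.66, SE 0.24, adjusted p = 0.609). Treated replicates 1 and 2 lay above all abscopal libraries and treated replicate 3 at their lower end. The 7 genes share this pattern within a library, as mt-Cytb was at 7167, 5938 and 3406 CPM and mt-Co1 at 4090, 3086 and 1509 CPM in the same 3 libraries, and they are thus not 7 separate observations. Without treated replicate 3 the median was 0.66. Against control tumors the median of the mitochondrial members was 0.20 in treated and -0.22 in abscopal tumors, and the former was -0.04 without treated replicate 1 and 0.45 without treated replicate 3.

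More members were called between the cell fractions than with treatment, and the same was true of all genes. The members departed from all genes mainly in direction, with most calls lower in CD45+ cells. Sorted fractions were compared in control tumors, in a joint fit over the control libraries that did not pair the fractions of a tumor. Each fraction has its own count table, so the fraction and any difference in how its table was made cannot be told apart. Genes that passed the count limit in any table were kept as members for both fractions. Cox6a2 passed only in the CD45+ tables, and Ndufb4c and Ndufs5 fell short of the limit in the CD45+ table of day 3. The direction of these genes between the fractions was thus partly fixed by the choice of members, and they are among the 74 nuclear members counted here. On day 3, 53 of 74 nuclear members were called lower in CD45+ than in CD45- cells and 2 higher, while 32% of all genes were called lower, 36.4% higher and 68.4% in either direction. On day 7, 59 were lower and 3 higher, against 38.1%, 42.8% and 80.9% of all genes. The median log2 fold change of the nuclear members was -0.57 on day 3 and -0.65 on day 7, and the median over all genes was 0.06 and 0.07. With library totals in place of TMM the medians of the members were -0.78 and -0.89 and those of all genes -0.14 and -0.19.

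Complex I holds 37 of the 74 nuclear members tested, and 28 of these were called lower on day 3 (median -0.60) and 32 on day 7 (median -0.66). The 37 include Ndufb4c and Ndufs5, whose direction was partly fixed by the choice of members. Ndufs1, which carries iron-sulfur clusters of the electron path, was at 68.6, 68.4, 69.3 and 69.7 CPM in the CD45+ control libraries of day 3 and at 191, 204, 199 and 209 CPM in the CD45- ones. Every CD45+ library lay below every CD45- library, and each fraction varied little (log2 fold change -1.54, SE 0.11, adjusted p = 6.49e-15; day 7 -1.41). Ndufa5, an accessory subunit of the matrix arm, was at 129 ± 11.7 and 498 ± 47.1 CPM (-1.95 on day 3 and -2.04 on day 7). Ndufb9, of the membrane arm, had a log2 fold change of -1.66. Ndufa4 was at 60.1 ± 10.1 and 195 ± 38.4 CPM (-1.68 and -1.76). By contrast, the iron-sulfur subunits Ndufs7 (-0.00 and 0.03) and Ndufs8 (0.12 and 0.16) were not called on either day.

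In complex III, 5 of 7 nuclear members were lower on both days, with medians of -0.68 and -0.73. The small subunits led, with Uqcrq at 247 ± 32.2 CPM in CD45+ and 775 ± 52.2 in CD45- libraries of day 3 (-1.64), Uqcr10 at -1.83 and Uqcr11 at -1.86. The core protein Uqcrc1 (-0.22) and the Rieske protein Uqcrfs1 (-0.29) were not called on day 3. In complex IV, 9 of 13 were lower and 2 higher on each day, with medians of -0.55 and -0.57. The 13 include Cox6a2, a member only through the CD45+ tables, so its direction was partly fixed by that choice. Cox7b was at 315 ± 46.9 and 929 ± 60.05 CPM on day 3 (-1.56). Cox7a2l (chr17:83501918-83517330, - strand, 5 exons) was higher in CD45+ cells on both days. It was at 221 ± 36.4 against 173 ± 10.4 CPM on day 3 (0.34, SE 0.13, edgeR adjusted p = 0.0239). On day 7 it was at 246 ± 34.2 against 187 ± 21.1 CPM (0.40, SE 0.08, edgeR adjusted p = 5.11e-05).

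Cox6a2 was close to absent from CD45- cells. On day 3 it had 117 counts in the 4 CD45+ control libraries, of 6829953 counts in all, and 0 in the 4 CD45- ones, of 8474805. Its share was therefore at least 48.4-fold higher in CD45+ cells, with the floor set at 3 counts over the group. Cox6a2 reached the 100 counts of the rule only in the CD45+ tables, so a higher level there is partly fixed by how it was chosen, and the ratios are a description. On day 7 it had 216 counts in 10 CD45+ control libraries and 8 in 11 CD45- ones, a ratio of shares of 39.5 (exact 95% interval 19.7 to 92.6). Intervals and floors cover counting error only.

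In the ATP synthase, 11 of 17 members were lower on day 3 and 13 on day 7, with medians of -0.55 and -0.46 and 1 member, Atp5h, higher on day 7 (0.29, SE 0.11, adjusted p = 0.0158). Among the c subunit genes, Atp5g2 was at 6.25 ± 2.71 CPM in CD45+ and 27.8 ± 4.57 in CD45- libraries of day 3 (-2.21) and Atp5g3 had a log2 fold change of -1.38. Atp5g2 shares sequence with copies as given above. The catalytic head subunits Atp5b and Atp5a1 had log2 fold changes of -0.78 and -0.33.

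Mitochondrial members were also lower in CD45+ cells, 5 of 7 on day 3 (median -0.57) and 6 of 7 on day 7 (median -0.45). The reading of mt-Cytb was 2664, 3362, 2732 and 3588 CPM in CD45+ and 7147, 5793, 3938 and 4726 CPM in CD45- control libraries of day 3, without overlap (log2 fold change -0.81, SE 0.21, adjusted p = 0.000939). The subunits mt-Nd2 (-0.76), mt-Nd4 (-0.65), mt-Nd6 (-0.57) and mt-Nd1 (-0.55) were called, and mt-Nd5 (-0.41, adjusted p = 0.151) was not. The exception was mt-Co1, at -0.15 (SE 0.30, adjusted p = 0.677) on day 3 and -0.04 on day 7.

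**Figure D5:**
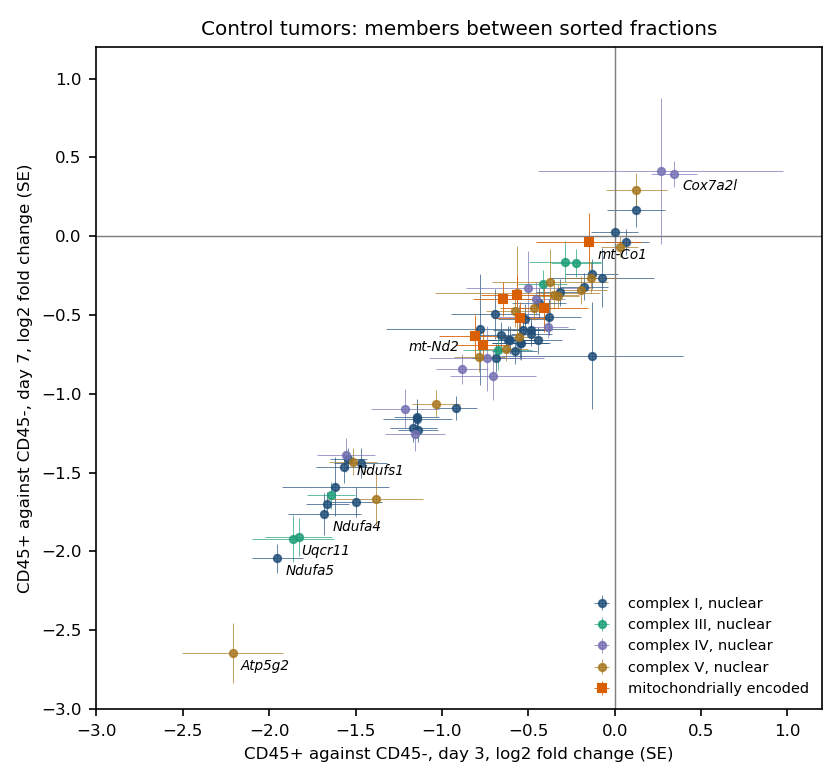
Log2 fold change of CD45+ against CD45- cells in control tumors on day 7 (y axis) against that on day 3 (x axis) for each member, colored by complex, with squares for mitochondrial members and bars of 1 standard error. Most members lie below 0 on both days, from Atp5g2 at -2.21 and -2.65 to Cox7a2l at 0.34 and 0.40, and Cox6a2, with no counts in CD45- controls of day 3, is not plotted.

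The lists of related genes were counted in the same way, beside 32% of all genes called lower and 36.4% called higher on day 3. On day 3, 3 of 4 complex II genes were called lower (median -0.64), 3 of 6 electron carriers (-0.82), 11 of 14 complex I assembly factors (with 1 higher; -0.71), 3 of 6 for complex III (1 higher; -0.61), 2 of 4 for complex V (-0.57), 6 of 12 tricarboxylic acid cycle enzymes (1 higher; -0.48), 38 of 73 mitochondrial ribosome proteins (6 higher; -0.47), 4 of 10 genes for mitochondrial DNA and RNA (-0.44) and 1 of 2 mitochondrial ribosomal RNAs. Complex IV assembly factors stood at 4 lower and 3 higher of 14 (-0.08), and nuclear regulators at 2 lower and 3 higher of 8 (0.24). Cytochrome c (Cycs), which carries electrons from complex III to complex IV, and cytochrome c1 (Cyc1), the complex III subunit that hands them over, had log2 fold changes of -1.59 and -1.45 on day 7. The iron-sulfur subunit of complex II, Sdhb, was at -1.52. Ppargc1a, a coactivator known to drive mitochondrial biogenesis, was far lower in CD45+ cells, at -6.85 on day 3 (SE 0.33) and -6.80 on day 7 (SE 0.20).

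Within a group, replicates varied by an amount that sets what could be seen. The median coefficient of variation of a nuclear member over the groups ran from 10.1 to 23.9% and that of a mitochondrial member from 11.4 to 34.8%. In CD45+ cells on day 3 it was 13.4% for nuclear members in control, 23.9% in treated and 17.6% in abscopal libraries, the treated group being the most variable of all.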

How the data were processed

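CD45- and CD45+ cells sorted on day 3 and day 7 were profiled in 70 libraries, mapped to groups by their labels. According to the labels and the study's methods, the authors trimmed reads with Trim Galore 0.5.0, aligned them to GRCm38 with STAR 2.6.0, collapsed molecular identifiers and counted them per gene with featureCounts, and deposited raw counts in 4 tables, one per fraction and day, each with 55487 gene lines. No column lacked a sample, and no fold changes of the authors were used. Because 1 tag is made per transcript, counts do not scale with transcript length. Depth per library (887798 to 3820700 counts) limits what can be seen of members with few counts.

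Each table was fitted with edgeR 4.0.16 (R 4.3.3): filterByExpr (minimum count 10, minimum total 15), TMM factors, the quasi-likelihood test over all groups of the table, and Benjamini-Hochberg adjustment over all genes tested, called at 0.05. The standard error (SE) is the absolute log2 fold change divided by the square root of F. Interactions were fitted over both days of a fraction, and fractions and days were compared over control libraries. CPM values are TMM-scaled within a fit, so controls differ slightly between the tables and the joint fit, and percentages use plain library totals. Limma 3.58.1 (voom) and DESeq2 1.42.0 were alternatives, as were library totals, no filter, each library left out, the compared groups alone, libraries of at least 1000000 counts, mitochondrial genes left out of library sizes, and the replicate number as a block. Leaving out 3 CD45+ libraries was added after the data were seen. No pair of replicates agreed within sampling noise, and the scripts were tested on simulated data. Same-numbered libraries did not deviate together in every pair of groups.

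Members, pathway lists, marker lists and the genes named were chosen with earlier results of these data known. Named were all mitochondrial members, the called members with the smallest adjusted p (up to 10, or the 5 smallest p where fewer were called), the isoform sets and core subunits. A few others were named after their values were seen: Ndufs7, Ndufa1, Cox7b and the genes of the pathway lists.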

Additional observations from a re-analysis of the deposited data

Results flagged for a closer look

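In CD45- cells, abscopal replicate 2 of day 7 stood apart from the other 3 libraries of its group, with 1.72% of its counts in the 7 mitochondrial members, against 1.98 to 2.01%. Abscopal replicate 6 of day 3 had 1.71% of its counts in the nuclear members, against 2.38 to 2.85% in the other 6 libraries of its group, and its total of 1080212 counts was the lowest of its table. These were 2 of 30 groups examined for a library standing apart, where chance flags about 1 in 20 groups. The third result is the treatment effect on Cox6a2 in CD45+ cells, which differed between the days by 2.04 log2 units (SE 0.58, edgeR adjusted p = 0.0485). On day 3, 6 of 6 treated libraries lay below all control libraries, and on day 7, 3 of 3 lay within or above the control range. The call was lost with limma-voom, with the replicate block and in most refits without 1 library.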

How the results depend on the processing

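No called value reversed its direction under any setting. For nuclear members in CD45+ cells of treated against control tumors on day 3 (4 called), the count was 7 with DESeq2, 13 with library totals in place of TMM, 13 with no filter on low counts, 7 without the 3 libraries with the highest neutrophil or melanoma markers, and 1 to 8 with 1 library left out. It was 8 with the replicate block. For treated against abscopal tumors (1 called), the count was 2 with DESeq2 and with library totals, 0 with no filter, with only the compared groups, without those 3 libraries and with the replicate block, and 0 to 1 with 1 library left out, 10 of 17 libraries ending the call. For abscopal against control tumors, it was 3 with no filter and 0 otherwise. For the difference between days 7 and 3 in the treatment effect in CD45+ cells (1 called), it was 2 with DESeq2, 3 with library totals, 4 with no filter, 0 with limma-voom and with the replicate block, and 0 to 2 with 1 library left out. The causes were not tested. In all, 237 of 254 counts of called members under other settings and 748 of 792 with a library left out stayed within 1.5 times the reported count, and the block changed no other count of called members by over 1.5 times. The labels do not say whether a replicate number marks shared animals. Abscopal and treated tumors can come from the same mouse, but control and treated tumors cannot. Between abscopal and treated CD45+ libraries of day 3, the correlation of same-numbered deviations ran from 0.01 to 0.32 (median 0.10). The median for other pairs was -0.04. Between abscopal and treated CD45- libraries of day 7, same-numbered correlations ran from -0.38 to -0.17. In CD45- cells, the median of the mitochondrial members in treated against control tumors was -0.05 on day 3 and -0.04 on day 7 with the block. Within the called genes, Ndufc2 was called in 23, Ndufv2 in 16 and Cox6a2 in 13 of 26 settings, with highest adjusted p-values of 0.076, 0.114 and 0.131. Depth limits low members most: Cox5a and Cox6a2 had at most 32 and 47 counts per CD45+ library of day 3.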

Other observations

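Ndufb1-ps carries a pseudogene symbol and was left out of the members, yet it was counted like a complex I gene, with 18820 and 17423 counts in the CD45- tables of days 3 and 7 and 5864 and 7698 counts in the CD45+ tables. In CD45+ cells on day 3 it was at 236 ± 55.6 CPM in control (SD, n = 4), 192 ± 76.8 in treated (n = 6) and 179 ± 52.4 in abscopal libraries (n = 7), and treated against control gave a log2 fold change of -0.30 (SE 0.28, edgeR adjusted p = 0.549).

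Gm28437, the nuclear copy of mt-Co3, ran from 241 to 977 CPM over the 70 libraries. In CD45+ cells on day 3 its log2 fold change in treated against control tumors was 0.34 (SE 0.30, edgeR adjusted p = 0.541), beside -0.36 for mt-Co1 of the same complex.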
